A study of Mus musculus with 6 samples.

Results

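The transcripts of 10 genes of the transforming growth factor-β (TGF-β) system were followed through the non-parenchymal cells of livers with nonalcoholic steatohepatitis (NASH), in vehicle-treated and ginkgetin-treated mice. The genes were chosen by symbol. They are the ligands Tgfb1, Tgfb2 and Tgfb3, the receptors Tgfbr1, Tgfbr2 and Tgfbr3, the latent-TGF-β-binding proteins Ltbp1, Ltbp3 and Ltbp4, and Tgfbi, the TGF-β-induced protein. All 10 were found among the 19349 genes of each table and all 10 had transcripts in each of the 6 libraries. Non-parenchymal cells are the cells of the liver other than hepatocytes. They came from male C57BL/6J mice bought at 8 weeks of age and kept on a high-fat diet for 24 weeks. For the final 8 weeks they received either vehicle (DMSO) or ginkgetin, a plant biflavone, at 10 mg/kg/day by the intragastric route. Each group had 3 droplet libraries (10X Genomics), whose tables hold counts of unique molecular identifiers (UMIs), that is, of tagged transcript molecules. The diet was common to both groups, so the comparison is of ginkgetin with vehicle in NASH. The labels do not say that each library came from a separate mouse, and p-values measure the spread between these libraries only.

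TGF-β is made as a precursor and leaves the cell in a latent complex with its own propeptide. Latent-TGF-β-binding proteins tether this complex to the extracellular matrix, from which integrins or thrombospondin-1 can release the active ligand. Active ligand binds the type II receptor encoded by Tgfbr2, which phosphorylates the type I receptor encoded by Tgfbr1, and this in turn phosphorylates the SMAD proteins that regulate target genes. Tgfbr3 encodes betaglycan, a co-receptor that presents ligand, TGF-β2 in particular, to the type II receptor. In the liver TGF-β is best known as the signal that turns quiescent stellate cells into matrix-producing cells during fibrosis.

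In the RefSeq annotation of GRCm38.p6, the build family named in the submitters' notes, the members lie apart in the genome, and values below cover each gene as a whole. Tgfb1 lies on chromosome 7 from 25687002 to 25705077, Tgfb2 on chromosome 1 from 186622787 to 186709697 and Tgfb3 on chromosome 12 from 86056743 to 86079041. Tgfbr1 lies on chromosome 4 from 47353222 to 47414926, Tgfbr2 on chromosome 9 from 116087695 to 116175363 and Tgfbr3 on chromosome 5 from 107106567 to 107289629. Ltbp1 lies on chromosome 17 from 75005480 to 75392512, Ltbp3 on chromosome 19 from 5740900 to 5758536 and Ltbp4 on chromosome 7 from 27305140 to 27339720. Tgfbi lies on chromosome 13 from 56609586 to 56639359.

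The libraries held 13128697 to 61796882 UMIs, and 27544 of 33168 cell barcodes were kept, 13490 from vehicle and 14054 from ginkgetin. Cells were clustered, and 31 clusters were grouped into 12 marker-defined classes plus a fibroblast-marker cluster led by Dpt and Clec3b that was kept apart. The remaining 7 clusters, 4.65% to 9.76% of the cells of a library, stayed unnamed. Replicate 3 of both groups stood apart. Its 2 libraries used another set of cell barcodes, and 256 genes were at 0 UMIs in all libraries of replicates 1 and 2 but at 5 CPM (counts per 1000000 UMIs) or more in both libraries of replicate 3, with 223 genes the other way round. These include older and newer symbols for the same gene, such as Sepp1 and Selenop, whereas the 10 members carried the same symbol in every library. Libraries of the same barcode set shared 10 to 85 cell barcodes, at most 1.31% of the smaller library. Most clusters were filled mainly by 1 barcode set, and several endothelial-like and macrophage-like clusters by 1 treatment group.

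The makeup of the libraries differed between groups. Macrophage-like cells were 23.1% ± 3.18 of kept cells (SD, n = 3) with vehicle and 7.15% ± 6.84 with ginkgetin, endothelial-like cells 14.1% ± 3.97 and 37.0% ± 6.88, and monocyte-like cells 13.8% ± 0.0646 and 3.39% ± 0.201. A member was compared between groups on UMIs summed per library and class, with the quasi-likelihood test of edgeR. It was called where the p adjusted by Benjamini-Hochberg over all genes tested in that class was under 0.05. CPM values below are taken over all UMIs of a class sum. The fold changes are ginkgetin over vehicle on the log2 scale, after TMM scaling, which sets most genes near no change. Without that scaling the median log2 fold change of all genes was 0.51 in macrophage-like cells and 0.36 over all kept cells (0.02 and 0.04 with it), so CPM and scaled fold changes can differ by about that much.

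Tgfb1, the ligand most studied in liver fibrosis, was detected in nearly all hematopoietic and endothelial classes. Its mean over libraries was highest in monocyte-like cells (336 CPM), followed by plasmacytoid dendritic-like (229.9 CPM), macrophage-like (209 CPM) and endothelial-like cells (184 CPM). The ranges of these neighbouring classes overlapped, also without vehicle replicate 1, which was far below the other libraries. Without it they were 269 to 476 CPM in monocyte-like, 164 to 345 CPM in plasmacytoid dendritic-like, 204 to 311 CPM in macrophage-like and 138 to 290.0 CPM in endothelial-like cells. Tgfb2 and Tgfb3 had another distribution. Tgfb2 was highest in the Dpt Clec3b cluster (55.6 to 155 CPM) and in cholangiocyte-like cells (41.9 to 124 CPM), the cells lining the bile ducts, and these ranges overlapped. Tgfb3 was highest in the Dpt Clec3b cluster (61.6 to 189 CPM), above the range of stellate-like cells (17.4 to 48.7 CPM). Ginkgetin replicate 2 held 8 cells of the Dpt Clec3b cluster and vehicle replicate 1 held 6 stellate-like cells, too few for a sum. Cholangiocyte-like cells (13.3 to 32.4 CPM) overlapped with stellate-like cells for Tgfb3 and lay above macrophage-like cells (3.86 to 8.97 CPM).

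The latent-binding proteins each had high levels in stellate-like cells and the Dpt Clec3b cluster. Ltbp1 was at 121 to 178 CPM in stellate-like cells and 55.6 to 206 CPM in the Dpt Clec3b cluster, and at most 17.1 CPM in any other class. Ltbp3 was at 55.6 to 197 CPM in the Dpt Clec3b cluster, 75.5 to 92.7 CPM in stellate-like cells and 19.1 to 80.9 CPM in cholangiocyte-like cells. Ltbp4 was at 347 to 935 CPM in endothelial-like cells, 346 to 959 CPM in the Dpt Clec3b cluster and 341 to 892 CPM in stellate-like cells. These 3 ranges overlapped, and hepatocyte-like cells, next in order at 3.95 to 97.1 CPM, lay below all of them. Levels between classes were not tested, since the classes come from clustering the same cells.

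The receptors had different distributions over the classes. Tgfbr1, the type I receptor, was highest in macrophage-like (113 to 203 CPM), plasmacytoid dendritic-like (71.2 to 147 CPM) and monocyte-like cells (69.8 to 132 CPM), with overlapping ranges. Tgfbr2, the type II receptor, was highest in the Dpt Clec3b cluster (145 to 322 CPM) and in endothelial-like cells (147 to 266 CPM). Stellate-like (77.9 to 158 CPM) and B cell-like cells (60.6 to 206 CPM) overlapped with both. Tgfbr3, the co-receptor, was restricted more sharply. It was at 114 to 403 CPM in stellate-like cells, 66.7 to 343 CPM in the Dpt Clec3b cluster and 126 to 236 CPM in endothelial-like cells, and monocyte-like cells, next in order, reached at most 21.5 CPM. Tgfbi encodes a secreted matrix protein that binds collagen and integrins. Its levels fell into separate ranges, with 1377 to 3033 CPM in stellate-like cells, 412 to 875 CPM in monocyte-like cells and 150.0 to 355 CPM in macrophage-like cells.

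**Figure D1:**
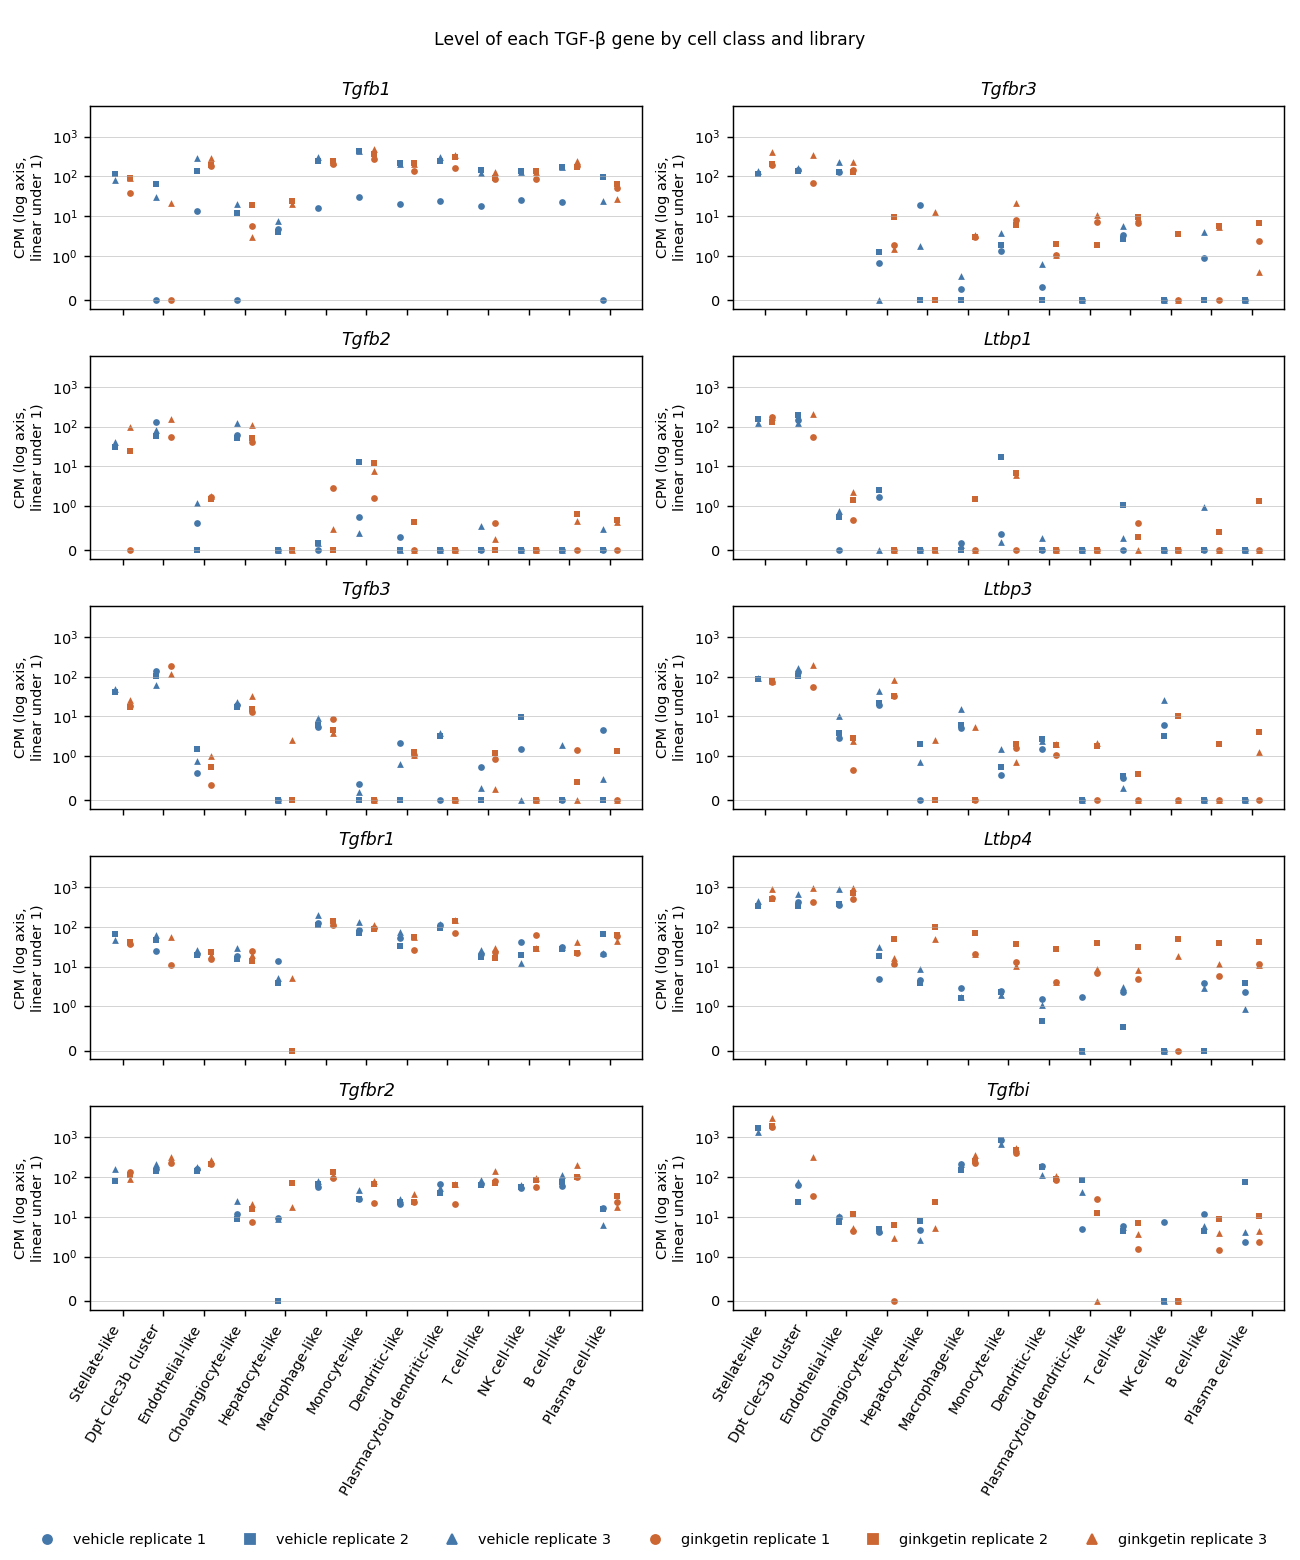
Level of each member (CPM, log axis) in each cell class, with a point for each library. By the mean over libraries Ltbp1, Tgfbr3 and Tgfbi are highest in stellate-like cells, Ltbp4 in endothelial-like cells and Tgfbr1 in macrophage-like cells, but of these only Tgfbi has a range apart from that of the next class, and the lone low point of Tgfb1 in most classes is vehicle replicate 1.

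The classes that supplied most of a member's UMIs differed between groups, as the makeup of the libraries did. With vehicle, macrophage-like cells gave on average 40.1% of Tgfb1 UMIs and 62.1% of Tgfbr1 UMIs of a library. With ginkgetin they gave 5.89% and 14.7%, and endothelial-like cells gave 40.3% of Tgfb1 UMIs, against 6.62% with vehicle. The Tgfb1 share of macrophage-like cells in vehicle libraries varied with the depth setting. It was 25.9% when each cell was thinned to 1000 UMIs. It was 15.5% when cells were restricted to 250 to 5000 UMIs, a setting that also changed the clustering and the members of the class. Endothelial-like cells were the main source of Tgfbr3 UMIs (76.3% and 82.9%) and of Ltbp4 UMIs (69.6% and 82.8%) in both groups, and of Tgfbr2 UMIs with ginkgetin (56.3%, against 20.1% with vehicle). Tgfbi came mostly from monocyte-like cells with vehicle (49.5%) and from monocyte-like (32.5%) and stellate-like cells (28.8%) with ginkgetin. Tgfb2 came mostly from cholangiocyte-like cells in both groups (59.1% and 51.7%). The sources of Ltbp1 varied between libraries. With vehicle the Dpt Clec3b cluster gave 23.8% to 71.9% of its UMIs, stellate-like cells 9.38% to 64.2% and monocyte-like cells 1.23% to 44.6%. The monocyte-like share was highest in vehicle replicate 2, where all 45 of these UMIs lay in 5 of 457 monocyte-like cells. With ginkgetin the Dpt Clec3b cluster gave 7.46% to 44.4% and stellate-like cells 36.6% to 56.7%. For Tgfb3 and Ltbp3, macrophage-like cells gave 55.1% and 46.9% of UMIs with vehicle and 8.17% and 1.90% with ginkgetin (for Ltbp3 all from ginkgetin replicate 3), although their CPM there was low.

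Tgfb1 was called in no class, and its values were dominated by the low level in vehicle replicate 1. In macrophage-like cells it was at 16.1, 246 and 311 CPM in vehicle replicates 1, 2 and 3 and at 204, 247 and 232 CPM in ginkgetin replicates 1, 2 and 3. In monocyte-like cells the values were 29.8, 441 and 431 CPM with vehicle and 269, 370.4 and 476 CPM with ginkgetin. In endothelial-like cells they were 13.1, 138 and 288 CPM with vehicle and 181, 192 and 290.0 CPM with ginkgetin. Without vehicle replicate 1 the groups still overlapped in each of these classes. Vehicle replicate 1 was below the mean of the other vehicle libraries by 17.3-fold in macrophage-like, 16.3-fold in endothelial-like, 14.6-fold in monocyte-like and 7.39-fold in T cell-like cells, and by 13.3-fold over all kept cells, where it held 654 Tgfb1 UMIs. Only 7 genes, Tgfb1 among them, were more than 3-fold below every other library in each of 6 classes in vehicle replicate 1, 1 gene was as far above, and no such gene was found in another library. The other 6 low genes, chosen by that rule after their values were seen, were Scand1, Scaf1, Dapk3, Spag7, Gm26917 and Gm42418. Any Tgfb1 value that includes vehicle replicate 1 rests on that library, and the fold change in macrophage-like cells was -0.17 with an SE of 0.83 (edgeR, adjusted p 0.930) with it and -0.70 (adjusted p 0.175) without it.

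**Figure D2:**
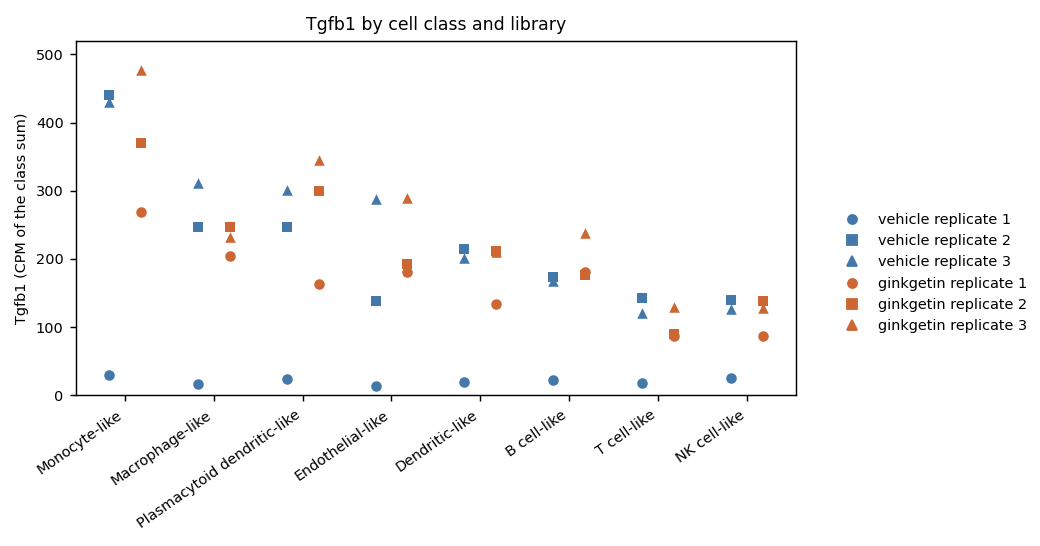
Level of Tgfb1 (CPM) in each library for the main cell classes, with a point for each library. Vehicle replicate 1 lies between 13.1 and 29.8 CPM in macrophage-like, monocyte-like and endothelial-like cells, and each other library lies at 138 CPM or above there.

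Macrophage-like cells, the class in which resident Kupffer cells and recruited lipid-associated macrophages are found, had 8 members that could be tested. Only Ltbp4 was called, as higher with ginkgetin, against a background of 13.1% of the 10171 genes tested. At an unadjusted p under 0.05 there were 4 members, Tgfbr1, Tgfbr3, Ltbp3 and Ltbp4, beside 32.0% of all genes. The same 4 were called when the replicate number was a block (27.8% of all genes), and 4 when the barcode set took its place (31.3%), and Ltbp3 and Ltbp4 were called within replicates 1 and 2, where 1711 of 9675 genes were. The median log2 fold change of the 8 members was -0.06, beside 0.02 for all genes tested. The ginkgetin sums were shallow, with 104, 238 and 548 cells against 1240, 737 and 1105, and Ltbp4, Tgfbr3 and Ltbp3 were all low in this class. Leaving out vehicle replicate 1, vehicle replicate 2 or ginkgetin replicate 2 left 0 of all genes called in this class, so that no member was called either.

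Ltbp4 was at 2.83, 1.64 and 1.70 CPM in macrophage-like cells of vehicle replicates 1, 2 and 3 (35, 10 and 31 UMIs). With ginkgetin it was at 20.4, 68.7 and 21.3 CPM (7, 45 and 44 UMIs). The groups did not overlap, and the log2 fold change was 3.68 with an SE of 0.59 (edgeR, adjusted p 0.0160). It was 3.50 with the replicate block (adjusted p 0.000522) and 3.96 within replicates 1 and 2 (adjusted p 0.00741). It kept its direction but lost the call without vehicle replicate 1 (4.05, adjusted p 0.0958), without vehicle replicate 2 (3.60, adjusted p 0.114) and without ginkgetin replicate 2 (2.81, adjusted p 0.0636), by edgeR in each case.

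Transcripts of the endothelial marker genes moved in the same direction in macrophage-like cells. The 8 endothelial markers together were at 186 to 208 CPM in the vehicle sums and 914 to 1621 CPM in the ginkgetin sums, and each of the 8 was separately higher in every ginkgetin library than in every vehicle library. Kdr, the VEGF receptor of endothelium, was at 4.92, 3.94 and 2.35 CPM with vehicle and 23.3, 156 and 28.5 CPM with ginkgetin, and no marker was at 0 in any library. By the group means Cdh5 was the largest part of the sum. It was at 96.0, 83.8 and 99.9 CPM with vehicle and 471, 394 and 511 CPM with ginkgetin. Whether the marker UMIs came from endothelial cells or from the macrophage-like cells themselves was not tested. In proportion to these markers, Ltbp4 was at 8.58 to 13.6 UMIs per 1000 marker UMIs in the vehicle macrophage sums and 21.3 to 42.4 in the ginkgetin ones. The same ratio in endothelial-like cells was 38.5 to 79.2 with vehicle and 37.9 to 55.0 with ginkgetin. When macrophage-like cells with UMIs of 2 or more endothelial markers were left out, the levels were 1.39, 1.48 and 1.41 CPM with vehicle and 30.4, 87.8 and 21.7 CPM with ginkgetin, the latter from 5, 8 and 13 Ltbp4 UMIs in 52, 44 and 193 cells, and the fold change was 4.23 (edgeR, adjusted p 0.0123). The cells left out made up 29.6% to 37.5% of macrophage-like cells in the vehicle libraries and 50.0% to 81.5% in the ginkgetin libraries. Of cells with an Ltbp4 UMI, 28.6%, 80.0% and 68.3% held 2 or more markers in the ginkgetin libraries. Of the other cells there, 51.5%, 81.8% and 64.5% did. In the vehicle libraries these shares were 68.75%, 40.0% and 53.3% against 35.3%, 29.4% and 37.0%. Whether RNA from endothelial cells gave the remaining Ltbp4 UMIs was not tested.

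**Figure D3:**
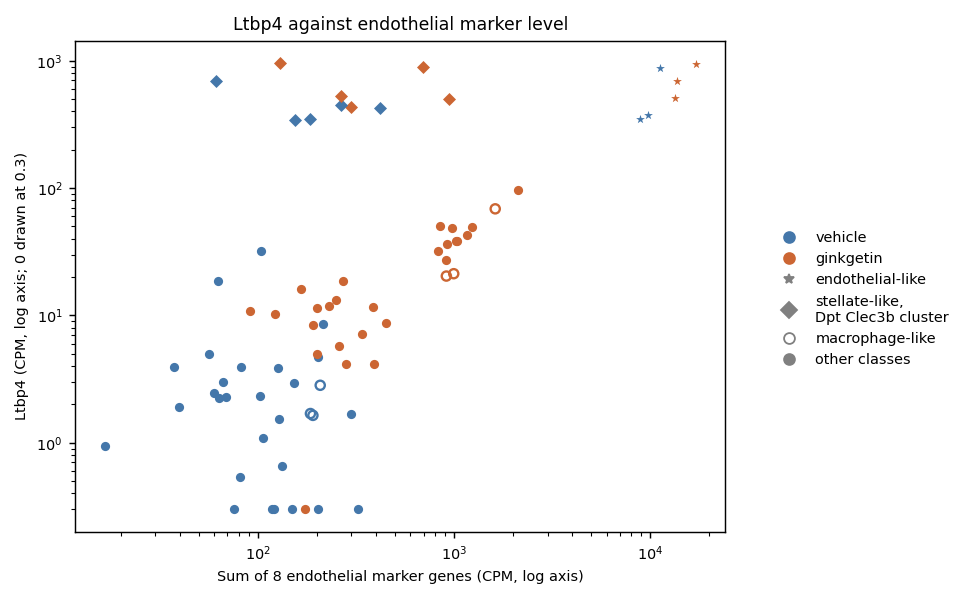
Ltbp4 (CPM) against the summed 8 endothelial markers (CPM) in each class sum, on log axes with a point for each library and 0 drawn at 0.3. The ginkgetin sums of macrophage-like cells lie to the right of the vehicle sums and above them, and endothelial-like cells lie farthest to the right, between 347 and 935 CPM of Ltbp4, a range that overlaps those of stellate-like cells and the Dpt Clec3b cluster.

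Tgfbr1 was at 129, 115 and 203 CPM in macrophage-like cells with vehicle and at 113, 137 and 128 CPM with ginkgetin. These values overlapped, and after scaling the log2 fold change was -0.68 with an SE of 0.23 (edgeR, adjusted p 0.0962), and called with the replicate block (adjusted p 0.0414). Without scaling it was -0.23 (adjusted p 0.560), so its size follows the scaling. Within the class, Tgfbr1 differed more between clusters than between groups. The clusters led by Trem2 and Gpnmb, genes of lipid-associated macrophages, held 182, 134 and 237 CPM in vehicle replicates 1, 2 and 3, and 326 and 424 CPM in ginkgetin replicates 2 and 3, from 42 and 35 cells. The clusters led by Cd163 and Marco, genes of resident macrophages, came almost wholly from ginkgetin libraries and held 44.7, 57.6 and 73.6 CPM in ginkgetin replicates 1, 2 and 3. The clusters led by Clec4f and Cd5l, Kupffer cell genes, held 86.7, 93.5 and 153 CPM in vehicle replicates 1, 2 and 3. After scaling Tgfbr1 was thus lower in the ginkgetin class sum, a difference not called without the block. In the Trem2 Gpnmb clusters its CPM was higher in the ginkgetin libraries, from few cells. These cluster values are not scaled and were not tested, so the directions cannot be set against each other. The share of macrophage-like cells with a Tgfbr1 UMI, each thinned to 1000 UMIs, was 14.7% ± 4.34 (SD, n = 3) with vehicle and 9.21% ± 0.421 with ginkgetin (two-sided exact permutation p 0.1, the smallest that 3 against 3 can give). The difference was -5.47 percentage points, and -2.98 without vehicle replicate 3. In T cell-like cells it was 2.27% and 2.44%, and the median depth of macrophage-like cells before thinning averaged 11035 UMIs with vehicle and 2364 with ginkgetin.

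**Figure D4:**
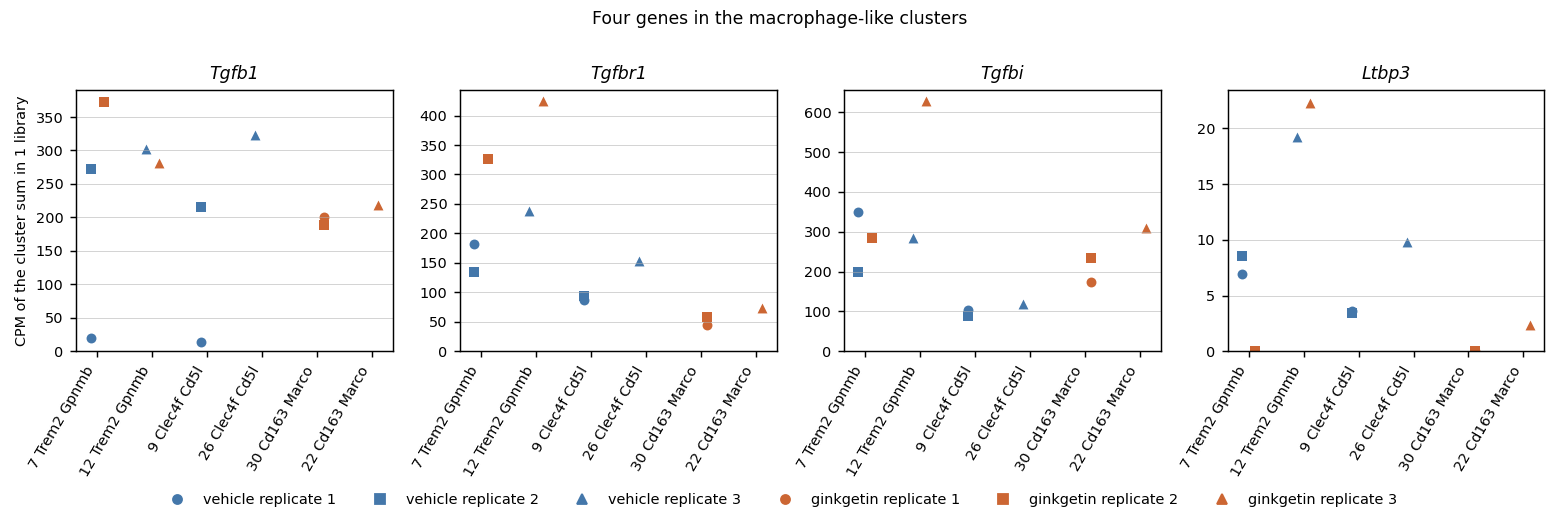
Level of members (CPM) in each macrophage-like cluster with 20 or more cells in a library, named by leading genes, with a point for each library. For Tgfbr1 the Trem2 Gpnmb clusters lie between 134 and 424 CPM and the Cd163 Marco clusters between 44.7 and 73.6 CPM. The panels are Tgfb1, Tgfbr1, Tgfbi and Ltbp3, each with its own linear axis.

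The other members of macrophage-like cells are given by their values. Tgfbr2 was at 57.2, 66.1 and 81.5 CPM with vehicle and 96.0, 136 and 108 CPM with ginkgetin, with no overlap, and a log2 fold change of 0.28 after scaling and 0.74 without it (edgeR, adjusted p 0.405 and 0.0617). Tgfbr3 rested on 3, 0 and 10 UMIs with vehicle and 1, 2 and 7 with ginkgetin, with a log2 fold change of 2.77 and an SE of 0.80 (edgeR, adjusted p 0.0632, and 0.0313 with the replicate block). Ltbp3 was at 5.09, 6.23 and 15.4 CPM with vehicle and 0, 0 and 5.31 CPM with ginkgetin. Its log2 fold change was -2.13 with an SE of 0.82 (edgeR, adjusted p 0.127, and 0.00616 with the replicate block). It was -1.42 without vehicle replicate 3 and -9.09 without ginkgetin replicate 3 (edgeR adjusted p 0.195 and 0.0920), and -1.22 without cells holding endothelial markers (adjusted p 0.399). Without ginkgetin replicate 3 the ginkgetin sums held no Ltbp3 UMI, so that value depends on the prior count of the fit. A count of 3 UMIs would stand for 8.73 CPM in the sum of ginkgetin replicate 1 and 4.58 CPM in that of ginkgetin replicate 2, so that the levels of vehicle replicates 1 and 2 were below this floor in the former and close to it in the latter. Tgfb3 was at 3.86 to 8.97 CPM in the class, with a log2 fold change of -0.96 (edgeR, adjusted p 0.194). Tgfbi was at 213, 150.0 and 218 CPM with vehicle and 233, 247 and 355 CPM with ginkgetin, which did not overlap, and yet its log2 fold change after scaling was 0.05 (edgeR, adjusted p 0.919). By cluster, Tgfbi was at 350.0, 200.0 and 285 CPM in the Trem2 Gpnmb clusters of vehicle replicates 1, 2 and 3 and at 284 and 628 CPM in those of ginkgetin replicates 2 and 3. In the Clec4f Cd5l clusters it was at 104, 88.6 and 117 CPM in vehicle replicates 1, 2 and 3, and in the Cd163 Marco clusters at 174, 235 and 309 CPM in ginkgetin replicates 1, 2 and 3.

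Monocyte-like cells, the blood-derived precursors of recruited macrophages, had 8 members tested and 0 called by edgeR, against 0% of 8223 genes, with 3 members at an unadjusted p under 0.05, beside 14.02% of all genes. Tgfbi was at 875, 869 and 674 CPM with vehicle and at 412, 487 and 554 CPM with ginkgetin. Every ginkgetin library lay below every vehicle library, but the difference was not called (log2 fold change of -0.84 with an SE of 0.26, edgeR adjusted p 0.257, and 0.0577 with the replicate block). The share of monocyte-like cells with a Tgfbi UMI, thinned to 1000 UMIs, was 46.4% ± 2.40 with vehicle and 33.1% ± 0.771 with ginkgetin (exact permutation p 0.1, the smallest possible). Before thinning it was 86.3% and 71.6%, at mean median depths of 7070 and 6325 UMIs, and T cell-like cells were at 0.453% and 0.387% after thinning. Dendritic-like cells showed the same order in CPM, with Tgfbi at 195, 179.6 and 112 CPM with vehicle and 84.7, 89.1 and 109.6 CPM with ginkgetin (log2 fold change of -0.78 with an SE of 0.27, edgeR adjusted p 0.221). Their thinned share with a Tgfbi UMI overlapped between groups, at 11.4% ± 2.16 with vehicle and 6.41% ± 3.39 with ginkgetin (exact permutation p 0.2). The members tested other than Tgfbi that reached an unadjusted p under 0.05 in monocyte-like cells were Ltbp4 and Tgfbr3. Ltbp4 was at 2.45, 2.28 and 1.91 CPM with vehicle and 13.1, 36.6 and 10.3 CPM with ginkgetin (log2 fold change 3.13, edgeR adjusted p 0.160, and 0.0140 with the replicate block). The endothelial markers together were at 39.8 to 69.1 CPM in these vehicle sums and 122 to 919 CPM in the ginkgetin sums, and their part in the Ltbp4 and Tgfbr3 values was not tested. Tgfbr3 rested on 7, 5 and 20 UMIs with vehicle and 5, 6 and 25 with ginkgetin (log2 fold change 2.21, edgeR adjusted p 0.211, and 0.0305 with the replicate block). With the block 3.54% of all genes were called in this class.

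Endothelial-like cells, which carried Tgfbr2, Tgfbr3 and Ltbp4, had 6 members tested. None was called by edgeR, against 0.451% of 10191 genes, and 0 members had an unadjusted p under 0.05, beside 13.8% of all genes. DESeq2 and limma-voom called 0 members as well, and the replicate block called 0 members and 12% of all genes. Tgfbr2 was at 161, 147 and 176 CPM with vehicle and at 214, 211 and 266 CPM with ginkgetin. Every ginkgetin library lay above every vehicle library, with a log2 fold change of 0.34 and an SE of 0.15 (edgeR, adjusted p 0.385). The share of these cells with a Tgfbr2 UMI was 15.3% ± 3.18 and 19.8% ± 1.20 after thinning (exact permutation p 0.1, the smallest possible) and 45.5% and 53.7% before (exact permutation p 0.5). The thinned difference was 4.45 percentage points, and 2.70 without vehicle replicate 2. The median depth averaged 4269 and 4126 UMIs, and in dendritic-like cells the thinned share was 1.84% and 2.14%. It was 7.27% and 12.8% in B cell-like, 3.17% and 6.83% in monocyte-like, 7.03% and 10.3% in T cell-like and 6.66% and 10.3% in macrophage-like cells (exact permutation p 0.1, 0.2, 0.3 and 0.3). Ltbp4 was at 347, 375 and 885 CPM with vehicle and 506, 699 and 935 CPM with ginkgetin, with a log2 fold change of 0.29 (edgeR, adjusted p 0.788), and its 2 highest values were those of replicate 3. Tgfbr3 was at 126, 128 and 236 CPM with vehicle and 141, 132 and 236 CPM with ginkgetin (log2 fold change -0.10, edgeR adjusted p 0.931). The class was made of different clusters in each group and barcode set. The cluster led by Fabp4 and Lyve1 held 1045 of 1060 and 458 of 500 endothelial-like cells of vehicle replicates 1 and 2, and the cluster led by Pde2a and Dlc1 and that led by Mecom and Efnb1 held most of those of ginkgetin replicates 1 and 2. In vehicle replicate 3, 372 of 406 were in a cluster with Vwf and Fbln2 among its leading genes, and in ginkgetin replicate 3, 989 of 1135 were in another, led by Selenop and Cavin2. A further cluster led by Edn1 and Vwf, almost wholly of replicates 1 and 2, stayed unnamed and outside the class. Ltbp4 varied between these clusters. In the cluster led by Edn1 and Vwf it was at 699 and 784 CPM in vehicle replicates 1 and 2 and at 973 and 1070 CPM in ginkgetin replicates 1 and 2. In the cluster with Vwf and Fbln2 it was at 895 CPM in vehicle replicate 3 and 1744 CPM in ginkgetin replicate 3. Only the latter cluster is part of the class sums, and levels within clusters were not tested. In the cluster led by Fabp4 and Lyve1, Ltbp4 was at 347 and 381 CPM in vehicle replicates 1 and 2. It was at 489 and 474 CPM there in ginkgetin replicates 1 and 2, from only 30 and 32 cells. In the cluster led by Mecom and Efnb1, which had Ltbp4 itself among its leading genes, it was at 785 and 995 CPM in ginkgetin replicates 1 and 2.

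The difference in response between classes was tested as well, in a fit with a term for each library, since both classes of a pair come from the same libraries. The fold change differed between macrophage-like and endothelial-like cells for 2 members, Ltbp4 and Tgfbr3, against 12.2% of 11405 genes tested. It differed between macrophage-like and monocyte-like cells for 2 members, Tgfbr1 and Tgfbi, against 7.44% of 10190 genes. Among these 4, the call for Ltbp4 alone was kept with each library left out in turn, with a difference of 3.06 on the log2 scale (SE 0.57, edgeR adjusted p 0.00402). From monocyte-like cells the fold change of Ltbp4 differed by 0.60 (SE 0.43, edgeR adjusted p 0.451).

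Stellate-like cells, the main receiving cells of TGF-β in fibrosis, numbered 181. Vehicle replicate 1 held 6 of them and was left out of the sums, so 2 vehicle libraries were compared with 3 ginkgetin libraries. All 8 stellate markers were detected in this cluster. All 10 members were tested and 0 were called by edgeR, DESeq2 or limma-voom, with 0 at an unadjusted p under 0.05 by edgeR (6.83% of all genes) and 0.0194% of 5157 genes called. Tgfbr3 was at 114 and 134 CPM in vehicle replicates 2 and 3 and at 189, 202 and 403 CPM in ginkgetin replicates 1, 2 and 3, which did not overlap (log2 fold change of 1.05 with an SE of 0.46, edgeR adjusted p 0.724). Tgfb3 was at 41.9 and 48.7 CPM with vehicle and 18.9, 17.4 and 25.4 CPM with ginkgetin, also with no overlap (log2 fold change -1.15, edgeR adjusted p 0.771). Tgfbi was at 1713 and 1377 CPM with vehicle and 1811, 1957 and 3033 CPM with ginkgetin (log2 fold change 0.49, edgeR adjusted p 0.900). Ltbp4 was at 341 and 452 CPM against 528, 499 and 892 CPM (log2 fold change 0.63, edgeR adjusted p 0.851). A count of 3 UMIs stood for 56.6 CPM in the sum of ginkgetin replicate 1, which had 12 cells, and for 9.53 to 10.5 CPM in those of ginkgetin replicates 3 and 2.

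The plot of fold changes shows the members in the tested classes side by side. Over the other 10 classes, monocyte-like and dendritic-like cells included, 46 tests of members gave 0 calls by edgeR and 0 by limma-voom, with 9 at an unadjusted p under 0.05, beside 2.66% to 17.4% of all genes in a class. The share of all genes called was 0.176% in cholangiocyte-like cells and 0% in each other class of these. DESeq2 called 3 members, Tgfbr3 and Ltbp4 in monocyte-like cells, where it called 146 of 8223 genes, and Ltbp4 in T cell-like cells, where it called 117 of 9594. The replicate block called 4, the same pair in monocyte-like cells and Ltbp4 in hepatocyte-like and plasma cell-like cells, where it called 3.71% and 0.723% of all genes. In hepatocyte-like cells the block could use only replicates 2 and 3, since ginkgetin replicate 1 held 0 of these cells. The endothelial markers together were at 37.6 to 215 CPM with vehicle and 1232 to 2113 CPM with ginkgetin in hepatocyte-like cells. In T cell-like cells they were at 63.4 to 81.4 and 191 to 829 CPM, in B cell-like cells at 127 to 153 and 259 to 1036 CPM, and in dendritic-like cells at 107 to 133 and 280.2 to 906 CPM. The ranges overlapped in plasma cell-like cells, with 16.6 to 102 and 91.3 to 1169 CPM, and in the Dpt Clec3b cluster, with 61.6 to 422 and 131 to 300.3 CPM. Ltbp4 itself was at 0.543 to 3.02 CPM with vehicle and 4.96 to 32.0 CPM with ginkgetin in T cell-like cells, at 0.660 to 1.52 and 4.17 to 27.3 CPM in dendritic-like cells, and at 0 to 3.85 and 5.75 to 38.7 CPM in B cell-like cells, and in the last 2 classes it did not pass the filter on low counts. These ranges did not overlap between groups either. The part of endothelial RNA in the Ltbp4 values of these classes was not tested.

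**Figure D5:**
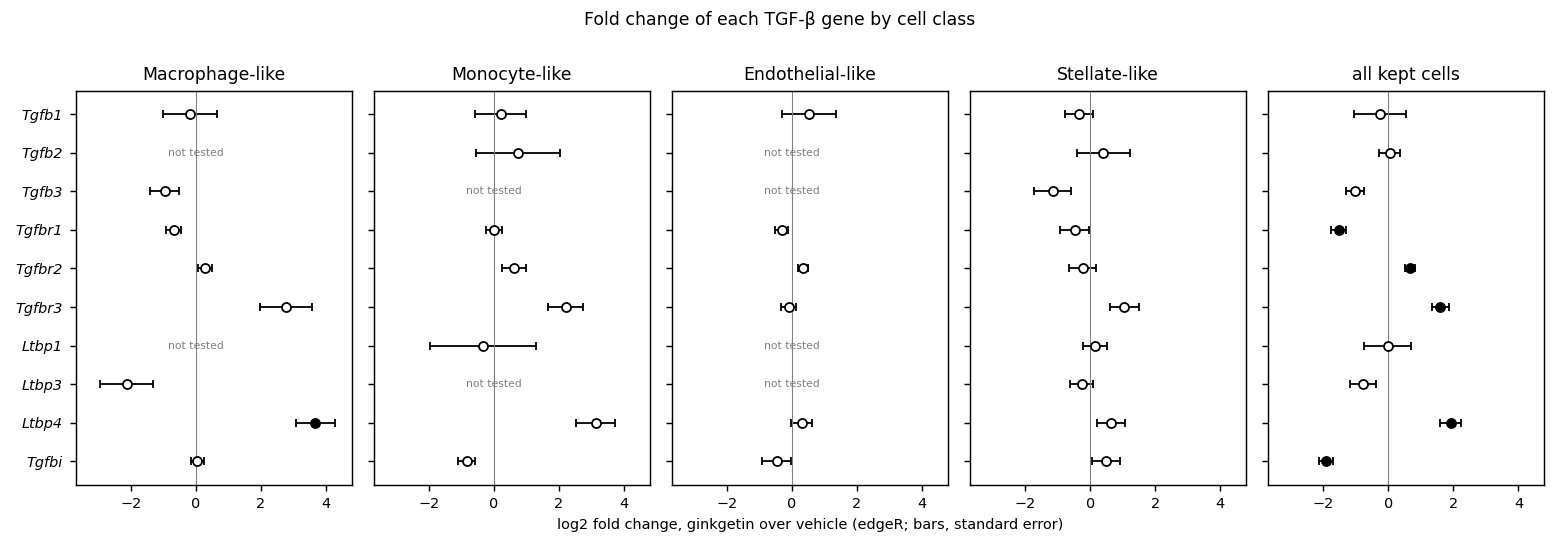
Log2 fold change (ginkgetin over vehicle, TMM-scaled, edgeR) of each member in macrophage-like, monocyte-like, endothelial-like and stellate-like cells and over all kept cells, with bars of 1 SE and filled points for an adjusted p under 0.05. The filled points are Ltbp4 in macrophage-like cells, at 3.68, and Tgfbr1, Tgfbr2, Tgfbr3, Ltbp4 and Tgfbi over all kept cells.

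Over all kept cells, with no use of the clusters, 5 of the 10 members were called by edgeR, against 19.5% of 14240 genes. Here fewer cells of a type and less RNA per cell cannot be told apart. Tgfbr1 fell, from 78.1, 65.5 and 122 CPM with vehicle to 31.0, 36.6 and 46.8 CPM with ginkgetin (log2 fold change of -1.53 with an SE of 0.23, edgeR adjusted p 0.00886). Tgfbi fell from 237, 229 and 208 CPM to 49.3, 69.5 and 111 CPM (-1.92, SE 0.22, edgeR adjusted p 0.00471).

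The other called members rose, and they were both other receptors and Ltbp4. Tgfbr2 rose from 62.0, 57.5 and 73.8 CPM to 101, 124 and 159 CPM (log2 fold change of 0.66 with an SE of 0.14, edgeR adjusted p 0.0249). Tgfbr3 rose from 15.2, 12.9 and 22.2 CPM to 41.0, 57.8 and 96.7 CPM (1.60, SE 0.27, edgeR adjusted p 0.0117). Ltbp4 rose from 50.2, 45.1 and 79.4 CPM to 149.6, 325 and 357 CPM (1.91, SE 0.33, edgeR adjusted p 0.0132). All 5 were called within replicates 1 and 2, where 2932 of 14058 genes were. Tgfb3 (-1.03, edgeR adjusted p 0.0524) and Ltbp3 (-0.79, adjusted p 0.219) were called only with the replicate block (0.0286 and 0.0232), as part of 37.1% of all genes (36.2% when blocked by barcode set). Leaving out vehicle replicate 1 or 2 ended the calls of Tgfbr2 (edgeR adjusted p 0.10004 and 0.108), Tgfbr3 (0.0738 and 0.0665) and Ltbp4 (0.0809 and 0.0812). Leaving out ginkgetin replicate 2 ended all but that of Tgfbi (0.0570 for Tgfbr1, 0.0991 for Tgfbr2, 0.0690 for Tgfbr3 and 0.0699 for Ltbp4), and leaving out ginkgetin replicate 3 that of Tgfbr2 (0.0612). With cells of 250 to 5000 UMIs alone, no member and no other gene was called. Without TMM scaling the call of Tgfbr1 was lost (-1.22, edgeR adjusted p 0.0507).

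The other genes of the pathway were taken from lists of 45 genes for latent complex activation, signal transduction, co-receptors and inhibitors, and fibrogenic response. In macrophage-like cells 31 were tested, 3 fell and 0 rose, against 13.1% of all genes, and 10 were at an unadjusted p under 0.05, beside 32.0% of all genes. Thbs1, thrombospondin-1, an activator of latent TGF-β, fell (log2 fold change -2.25, edgeR adjusted p 0.0323) from 5.81, 7.54 and 14.5 CPM to 2.91, 1.53 and 3.38 CPM. Fn1, fibronectin, fell (log2 fold change -2.21, edgeR adjusted p 0.0488) from 18.9, 17.4 and 40.2 CPM to 0, 10.7 and 9.18 CPM. These were low, and none of the list's genes was called without vehicle replicate 1, vehicle replicate 2, ginkgetin replicate 2 or ginkgetin replicate 3. With the replicate block 10 of the 31 were called, beside 27.8% of all genes. The 4 lower included Thbs1, Fn1 and the integrin subunit Itgb5. The 6 higher were the inhibitors Skil, Smad6 and Smad7, the co-receptor Eng, and the proteoglycans Bgn and Dcn. Dcn is also a marker of stellate-like cells here, and the part of stellate RNA in its values was not tested.

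The list of co-receptors and inhibitors had all 12 genes tested in macrophage-like cells and 0 called by edgeR, with 5 at an unadjusted p under 0.05 and a median log2 fold change of 0.62, beside 0.02 for all genes. Of the 10 signal transduction genes tested 0 were called (median 0.39). Of the 12 fibrogenic response genes only 2 could be tested, and of the 11 genes of latent complex activation 7 could. Skil, a SMAD co-repressor, was at 77.5, 91.0 and 120.4 CPM with vehicle and 172, 189 and 230.4 CPM with ginkgetin (edgeR, adjusted p 0.0871, and 0.0362 with the replicate block). Smad7, which directs the receptor to degradation, was at 40.3, 43.8 and 45.4 CPM and 55.3, 113 and 116 CPM (adjusted p 0.0986, and 0.0270 with the block). Eng and Bgn are also endothelial transcripts here, among the highest of the lists in endothelial-like cells, and Eng was at 2.66, 9.84 and 12.03 CPM with vehicle and 17.5, 73.3 and 29.0 CPM with ginkgetin in macrophage-like cells. The part of endothelial RNA in these values was not tested.

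In endothelial-like cells 33 of the other genes were tested and 0 were called by edgeR or limma-voom, against 0.451% of all genes, with 5 at an unadjusted p under 0.05, beside 13.8% of all genes. The highest were Eng, Itgb1 and Bgn. Eng was at 315, 933 and 1443 CPM with vehicle and 1173, 1328 and 1670 CPM with ginkgetin (log2 fold change 0.52, edgeR adjusted p 0.722). Itgb1, an integrin subunit, had a log2 fold change of 0.02 (edgeR, adjusted p 0.995), and Bgn, biglycan, one of 0.19 (adjusted p 0.774). With the replicate block 5 of the 33 were called, all lower with ginkgetin, beside 12% of all genes. DESeq2 called 3 of them, Thbs1, Ctgf and Tgif1, beside 426 of 10191 genes. Ctgf, connective tissue growth factor, was at 246, 245 and 268 CPM with vehicle and 102, 52.5 and 50.1 CPM with ginkgetin, with a log2 fold change of -2.02 (edgeR, adjusted p 0.0910, and 0.00284 with the block). Tgif1, a SMAD co-repressor, was at 23.7, 18.1 and 27.2 CPM with vehicle and 12.1, 12.4 and 13.7 CPM with ginkgetin (edgeR adjusted p 0.0837, and 0.0127 with the block). The cluster led by Fabp4 and Lyve1, mostly of vehicle replicates 1 and 2, had Ctgf among its 10 leading genes.

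In stellate-like cells 35 of the other genes were tested, 1 fell and 0 rose, against 0.0194% of all genes, with 9 at an unadjusted p under 0.05, beside 6.83% of all genes. Timp1, the tissue inhibitor of metalloproteinases induced in activated stellate cells, was at 551 and 422 CPM with vehicle and 0, 3.49 and 9.53 CPM with ginkgetin, from 92 and 182 UMIs against 0, 1 and 3. Its log2 fold change was -6.30 with an SE of 0.58 (edgeR, adjusted p 0.0243). It was the only gene of all 5157 called in this class. It was not called without any 1 of the ginkgetin libraries, or by limma-voom. The matrix genes were abundant. Dcn, decorin, which binds TGF-β, showed a log2 fold change of -0.06 and Bgn one of -0.32 (edgeR, adjusted p 0.99985 and 0.944). Col3a1, type III collagen, was at 2743 and 4253 CPM with vehicle and 1622, 816 and 1280 CPM with ginkgetin, without overlap (log2 fold change -1.57, edgeR adjusted p 0.546). Col1a1, type I collagen, was at 1246 and 2879 CPM against 321, 199 and 280 CPM, and was called with the replicate block (edgeR adjusted p 0.264, and 0.000115 with the block) and by DESeq2, as Col3a1 was by DESeq2, which called 17 of 5157 genes. With the block Thbs1, Ltbp2 and Lox were lower as well, and 3.4% of all genes were called. The block could use only replicates 2 and 3 in this class, so ginkgetin replicate 1 was left out of that fit too. Over all kept cells 44 of the list's genes were tested, 6 rose and 8 fell, beside 19.5% of all genes.

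Over the 75 sums of a class in a library, the genes whose log2(CPM + 1) was most like that of a member were found by Pearson correlation. These are descriptions, since sums of a library share its depth and those of a class its makeup. Tgfb1 was most like Akna (0.79), Msn (0.76) and Rel (0.75). Tgfb2 was most like Fam13c (0.93), Ak1 (0.91) and F3 (0.91), and Tgfb3 most like Efemp1 (0.89), Wnt5a (0.89) and P3h4 (0.88). Tgfbr1 was most like Cyba (0.83), Kctd12 (0.81) and Scamp2 (0.81). Tgfbr2 was most like B4galt1 (0.83), Klf2 (0.81) and Ldb1 (0.80), and Tgfbr3 most like Pla2r1 (0.92), Csf1 (0.90) and Hoxb2 (0.89). Among the latent-binding proteins, Ltbp1 was most like Gdf10, Pdgfra and Col6a2 (0.94 each), Ltbp3 most like Ninl (0.89), Neo1 (0.88) and Arhgef25 (0.88), and Ltbp4 most like Timp3, Tns2 and Msrb3 (0.92 each). Tgfbi was most like Lrp1 (0.84), Rnf150 (0.83) and Adap2 (0.78).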

How the data were processed

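Single-cell RNA-Seq was performed by the authors on non-parenchymal liver cells of 3 vehicle and 3 ginkgetin libraries. The deposited tables hold raw UMI counts for each gene in each cell barcode, not normalized. The submitters' processing notes name GRCm38 and mm10, while the aligner and the annotation are not given in the sources used here. The labels name a 10X platform but also an RNA extraction kit and a library kit for bulk RNA. Replicate 3 of both groups has another barcode set and other symbols for some genes. Groups come from the labels.

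Barcodes with 250 to 5000 genes detected and under 5% mitochondrial UMIs were kept (27544). This departs from the methods of the study, which state the range for UMIs. Read so, it kept only 16821, further from the total the study gives, and it was used as an alternative, under which edgeR called 0 of 12131 genes over all kept cells (1724 at an unadjusted p under 0.05). Cells were clustered in scanpy 1.11.5 (counts scaled to 10000, 2000 variable genes with the members left out, 30 components, 15 neighbours, Leiden resolution 1, leidenalg 0.10.2, seed 1), without integration. A cluster was named from 3 or more detected markers (25% of cells, 2-fold over other cells). Scrublet called 0.0286% to 0.192% of the cells of a library as doublets, too few to be relied on, and none was removed. Sums of 10 or more cells per library and class were compared in edgeR 4.0.16 (R 4.3.3) with TMM, filterByExpr and group as the only term, and called at an adjusted p under 0.05. Correlations used a pseudocount of 1 CPM. Shares of cells were thinned to 1000 UMIs per cell and compared by exact permutation over libraries. The floor of 3 UMIs covers counting error only. DESeq2 1.42.0, limma-voom (limma 3.58.1), other scalings, filters, clusterings, blocks and leaving out each library were alternatives. The replicate block used only replicates with a sum of the class in both groups.

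The members and lists were chosen with earlier results of these data known. All 10 members were named. Of the other pathway genes, those called in macrophage-like, endothelial-like or stellate-like cells were named, or the 3 of highest mean CPM where fewer than 3 were called there, together with genes called only by an alternative where the text says so. A called gene of the lists is counted but not reported here. For each member with 20 CPM or more in a class, the 3 genes most correlated with it were named.

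The labels give both groups replicates 1 to 3. Same-numbered libraries deviated together from their group means in each of 11 sums (the correlation over genes was 0.333 to 0.914). The numbers were taken as pairs in the replicate block, a pairing that comes from the data and not from the labels. Replicate 3 stood apart in both groups and so shifts the group means, so these correlations cannot show that replicates 1 and 2 pair. The pairing of replicates 1 and 2 was not clear by itself, with correlations of -0.0254 to 0.250 once replicate 3 was left out.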

Additional observations from a re-analysis of the deposited data

Results flagged for a closer look

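The difference between classes in the response of a member was tested with an interaction term in edgeR beside a term for each library, a test added after the data had been seen, on 11405 genes for macrophage-like against endothelial-like cells (12.2% of them called) and 10190 genes for macrophage-like against monocyte-like cells (7.44% called). It found 4 members whose log2 fold change in macrophage-like cells differed from that in the other class. For Ltbp4 the difference from endothelial-like cells was 3.06 (SE 0.57, edgeR adjusted p 0.00402), and it was called with each library left out in turn (adjusted p 0.000568 to 0.0145). The difference from monocyte-like cells was 0.60 (SE 0.43, edgeR adjusted p 0.451). Endothelial markers were also higher in the ginkgetin sums of macrophage-like cells, as given above. For Tgfbr3 the difference from endothelial-like cells was 2.58 (SE 0.63, edgeR adjusted p 0.0161), which rests on 13 UMIs in vehicle and 10 UMIs in ginkgetin macrophage-like sums and was not called without ginkgetin replicate 3 (adjusted p 0.137). For Tgfbr1 the difference from monocyte-like cells was -0.66 (SE 0.19, edgeR adjusted p 0.0463), and it was not called without vehicle replicate 1 (adjusted p 0.175), 2 (0.141) or 3 (0.119) or ginkgetin replicate 1 (0.0681) or 3 (0.163). For Tgfbi the difference from monocyte-like cells was 0.91 (SE 0.24, edgeR adjusted p 0.0251), and it was not called without vehicle replicate 1 (adjusted p 0.102), vehicle replicate 2 (0.166) or ginkgetin replicate 3 (0.0663).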

How the results depend on the processing

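Of 563 fold changes under other settings, 540 kept their direction. The reversed ones were of members not called. Tgfb1 in macrophage-like cells went from -0.17 to 0.36 with the replicate block, 0.26 with library sizes only, 0.59 with limma-voom, 0.41 within replicates 1 and 2, and -0.70 to 0.29 with a library left out. Tgfb1 over all kept cells went to 0.30, 0.051, 0.37, 0.075 and -0.78 to 0.17 under the same settings, and to 0.32 with cells of 250 to 5000 UMIs. With a library left out, Tgfb1 ranged from -0.019 to 1.26 in endothelial-like and -0.33 to 0.71 in monocyte-like cells, Tgfbr3 in endothelial-like cells from -0.26 to 0.10 (0.056 with library sizes only), and Tgfbi in macrophage-like cells from -0.079 to 0.17 (-0.12 thinned to 1000 UMIs, -0.15 with cells of 250 to 5000 UMIs, -0.25 without endothelial-marker cells). Members called in macrophage-like cells, 1 as reported, were 4 with the replicate block (2827 of 10171 genes called in all) or barcode-set block (3181), 3 with DESeq2 (1921) or the Kupffer gate (1039 of 9403), 2 with limma-voom (1688), library sizes only (2051), replicates 1 and 2 (1711 of 9675), no cell filter (1686 of 10406), resolution 2 (1310 of 10204) or thinning (800 of 6151), and 0 to 1 with a library left out. In the other classes, 0 became 4 with the replicate block, 3 with the barcode-set block (in monocyte-like cells, with 237 of 8223 genes called, and plasma cell-like cells, with 80 of 5949) or DESeq2 and 1 with no gene filter (in NK cell-like cells, with 46 of 13113). Over all kept cells 5 became 0 with cells of 250 to 5000 UMIs and 1 to 5 with a library left out, where 656 to 2060 genes were called in place of 2776. Other pathway genes called in macrophage-like cells, 3 as reported, were 10 with the replicate block, 9 with the barcode-set block, 6 with DESeq2 or library sizes only, 5 within replicates 1 and 2, 1 at resolution 2, in the Kupffer gate or without endothelial-marker cells, 0 with limma-voom or cells of 250 to 5000 UMIs, and 0 to 2 with a library left out. In endothelial-like cells 0 became 5 with the replicate block (1224 of 10191 genes called), 6 with the barcode-set block (1488), 4 within replicates 1 and 2 (747 of 10078), 3 with DESeq2 (426) and 1 without the top 5% of Scrublet scores or with cells of 250 to 5000 UMIs. In stellate-like cells 1 became 5 with the replicate block (164 of 4821), 7 with the barcode-set block (158 of 5157), 6 with no gene filter (101 of 13954), 4 with DESeq2 (17), 0 with limma-voom, thinning or the Dpt Clec3b cluster joined, and 0 to 2 with a library left out. The vehicle share of Tgfb1 UMIs from macrophage-like cells, 40.1%, was 15.5% with cells of 250 to 5000 UMIs and 25.9% thinned. Of all genes, 1337 were called in macrophage-like cells, 48 with cells of 250 to 5000 UMIs, 0 when either of vehicle replicates 1 and 2 or ginkgetin replicate 2 was left out, and 3181 with the barcode-set block. Of the calls in macrophage-like cells 51.2% were higher with ginkgetin, and 87.8% with library sizes only, and over all kept cells 51.4% and 73.6%. The replicate block changed no other call of a member than those given with it. The causes were not tested. A count of 3 UMIs stood for 0.164 to 8.73 CPM in macrophage-like sums.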

Other observations

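Ltbp1 and Tgfb2, otherwise transcripts of mesenchymal and cholangiocyte-like cells, were found in a few monocyte-like cells, chosen after their values were seen. There were 9 monocyte-like cells with UMIs of both genes. Of these, 5 were from vehicle replicate 2, where they held all 45 Ltbp1 UMIs and all 33 Tgfb2 UMIs of its 457 monocyte-like cells, 2 were from ginkgetin replicate 2, and 1 each came from vehicle replicate 1 and ginkgetin replicate 3. The genes highest in these cells relative to other monocyte-like cells included Prg4, Cxcl13, Alox15, Pf4, Saa3 and Slpi. Marco, a macrophage marker here, was among them as well, with UMIs in 3 of the 9 cells. Whether these cells are monocytes was not tested. Most of the monocyte-like UMIs of Ltbp1 and Tgfb2 thus lie in these cells.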
